A study of Mus musculus with 13 samples.

Results

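The transcripts of the mitochondrial genome were examined in aortas of 13 mice. The members were all genes that the count table places on the mitochondrial chromosome (MT), 37 of the 54532 genes listed. They comprise 13 mRNA genes, 2 rRNA genes and 22 tRNA genes, and 27 of the 37 (13 mRNA, 2 rRNA and 12 tRNA genes) had enough counts to be tested between the groups. The other 10 are tRNA genes with at most 56 counts in any aorta, and a gene could pass this filter through high counts in 1 group.

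Each library came from the aorta of 1 ApoE knockout mouse (ApoE-/-) infused with angiotensin II (AngII) by a subcutaneous pump, a model of abdominal aortic aneurysm. Adenovirus was injected weekly into the tail vein, and the labels used here give neither the age of the mice nor the infusion rate. The 6 Ad-sham mice received an adenovirus without the Fam3a gene, and the 7 Ad-FAM3A mice received the same vector carrying mouse Fam3a with a FLAG tag under the EF1A promoter, which is not specific to a cell type. Both groups thus share the knockout, the infusion and the virus, and neither contains an uninfused or uninfected aorta. FAM3A is a cytokine-like protein that the study links to mitochondrial ATP synthesis, and the question addressed here is whether mitochondrial transcripts differed with the virus.

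Counts on genes summed to between 14481179 and 19797407 per aorta, and levels are given in CPM, the counts of a gene scaled to the library size. For counting error alone, a gene with 0 counts could have a level of as much as 0.152 to 0.207 CPM, which is that of 3 counts. Fam3a itself had 24.3 ± 4.69 CPM in the 6 Ad-sham and 24.0 ± 4.11 CPM in the 7 Ad-FAM3A aortas (mean ± SD), a log2 fold change of -0.03 ± 0.16 (SE, exact permutation p = 0.946), so each direction below refers to the labels. The 8 smooth muscle markers were detected in every aorta, with summed levels of 2894 to 12760 CPM in Ad-sham and 2538 to 18538 CPM in Ad-FAM3A. Markers of other tissues also varied between libraries. The 7 B-cell markers summed to 18494 and 5727 CPM in Ad-FAM3A6 and Ad-FAM3A7, where no other aorta passed 371 CPM. The 7 brown fat markers ranged from 637 to 3723 CPM. In whole aorta, fewer cells of a type and less RNA per cell cannot be told apart, and p-values measure the spread between these aortas. Permutation p-values are exact and two-sided, over all splits of the aortas, and fold changes are Ad-FAM3A over Ad-sham.

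The mitochondrial genome is a small circle of DNA that encodes core subunits of the respiratory chain and of ATP synthase, together with the rRNAs and tRNAs needed to translate them. Both of its strands are transcribed into long precursors, and tRNAs that lie between the other genes are cut out to release the mature mRNAs and rRNAs. Most respiratory chain subunits, the RNA polymerase and every factor that processes these RNAs are encoded in the nucleus and imported. In muscle and in brown fat, mitochondrial transcripts are known to be especially abundant.

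Sequence features of the members bear on how their reads can be counted, and the sequences below, from the GENCODE M21 transcripts of GRCm38, show the features that matter for the results. A stretch of chromosome 1 (positions 24611535 to 24616197) carries 7 annotated pseudogenes that are copies of mitochondrial genes. Of these, 6 were identical to their mitochondrial gene over the whole aligned stretch, of 294 to 876 bases. The seventh, Gm29216 (492 bases), matched the last 483 bases of mt-Co1 in a local alignment with 1 difference (99.8% identity). Its other bases did not align, and the difference lies near the edge of the aligned stretch, beside an identical run of 479 bases. That difference is A1066T, counted from 1 at the 5′ end of mt-Co1 with the mitochondrial base first, and it is in capitals below.
mt-Co1, bases 1063 to 1123: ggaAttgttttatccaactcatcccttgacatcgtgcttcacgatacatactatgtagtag
Gm29216, the matching bases: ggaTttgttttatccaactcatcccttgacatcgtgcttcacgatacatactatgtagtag

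Neighbouring members also share bases with each other. The last 43 bases of mt-Atp8 (MT:7927-7969, in capitals within MT:7897-7969 below) are also the first 43 of mt-Atp6, mt-Nd4l and mt-Nd4 share 7 bases, and the ends of mt-Nd5 and mt-Nd6 overlap by 14 bases on opposite strands.
mt-Atp8, 3′ end: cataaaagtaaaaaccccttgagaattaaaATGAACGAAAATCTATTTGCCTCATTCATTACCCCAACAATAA
The genes mt-Co3, mt-Nd4 and mt-Cytb end in a lone T (capital) that is completed to a stop codon when the poly(A) tail is added, so the end of the mature mRNA depends on processing.
mt-Co3, 3′ end (MT:9361-9390): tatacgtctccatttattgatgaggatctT
mt-Nd4, 3′ end (MT:11515-11544): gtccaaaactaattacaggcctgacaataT
mt-Cytb, 3′ end (MT:15259-15288): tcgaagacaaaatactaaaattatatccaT
The tRNA genes are 59 to 75 bases long. The 2 with the highest median counts, mt-Tp (proline, MT:15356-15422) and mt-Tc (cysteine, MT:5192-5257), both lie on the minus strand and are shown because the tRNA counts turn on them.
mt-Tp: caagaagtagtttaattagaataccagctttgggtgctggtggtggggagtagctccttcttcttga
mt-Tc: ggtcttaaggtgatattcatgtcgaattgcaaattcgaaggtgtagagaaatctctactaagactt

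Mitochondrial genes took 8.13% to 17.7% of all counts. The share was 17.7%, 10.2%, 10.9%, 13.4%, 9.19% and 17.4% in Ad-sham1 to Ad-sham6, and 10.2%, 8.13%, 16.8%, 9.75%, 12.2%, 14.7% and 12.5% in Ad-FAM3A1 to Ad-FAM3A7. Ad-sham1 and Ad-sham6 were highest and Ad-FAM3A2 lowest, and the groups overlapped over almost their whole range. The means were 13.13% ± 3.697 (SD, n = 6) and 12.05% ± 2.997 (SD, n = 7). On the log2 scale the difference was -0.11, within the pooled SD of 0.38, whereas the 95% Wilson interval of a single share was at most ±0.0192 percentage points wide (counting error alone). Leaving out 1 aorta moved the difference from -0.21 (without Ad-sham5) to -0.019 (without Ad-sham1), and it was -0.025 without Ad-sham6 and -0.027 without Ad-FAM3A2. Nearly all of these counts lay on mRNA genes, which took 7.57% to 17.0% of the library. The 2 rRNA genes took 0.165% to 0.716% and the 22 tRNA genes 0.0151% to 0.0624%. The labels name an mRNA-Seq library kit (SMARTER) and the study's methods another kit. How mRNA was selected is not given in the sources used here, and values that set rRNA or tRNA beside mRNA depend on it.

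**Figure D1:**
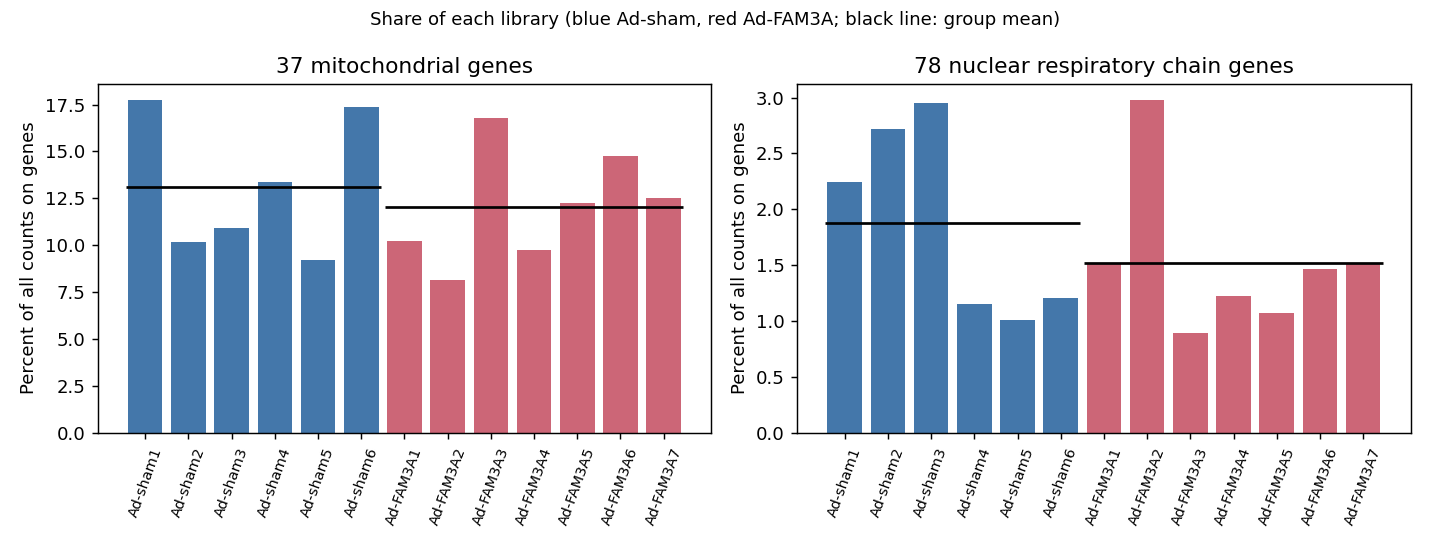
Percent of all counts on genes that fell on the 37 mitochondrial genes (left) and on 78 nuclear genes for respiratory chain subunits (right), 1 bar per aorta, with group means as black lines. The mitochondrial share ranged from 8.13% to 17.7% with overlapping groups, and the nuclear share was highest in Ad-FAM3A2 (2.98%) and Ad-sham3 (2.95%).

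A gene counted as called when its adjusted p was under 0.05 and its level changed by more than 1 on the log2 scale in either direction. Of the 27 mitochondrial genes tested, 0 were called. The background was 0% (0 of 15811 genes tested), and no gene had an adjusted p below 0.810 (edgeR quasi-likelihood test, Benjamini-Hochberg). With the same thresholds the study reported differentially expressed genes in both directions from its RNA sequencing of these groups. Why the edgeR fit here called 0 was not tested. At an unadjusted p under 0.05 there were 2 of the 27, mt-Nd3 and mt-Ty, which is 7.41% against a background of 5.91%. DESeq2 called 10 genes and limma-voom called 0, with 0 mitochondrial genes among them. An unadjusted p under 0.05 was given to 3 of 36 mitochondrial genes by DESeq2 (8.33%, against 4.88% of the 30727 genes it tested) and to 3 of 27 by limma-voom (11.1%, against 4.44%). The fold change was below 0 for 18 of the 27 genes (66.7%, against 49.6% of all genes tested). The median log2 fold change was -0.10 over the 13 mRNAs, 0.01 over the 2 rRNAs and -0.43 over the 12 tested tRNAs, beside 0.0032 over all genes tested. The summed share of the 22 tRNA genes had the opposite direction to their median, with a log2 difference of 0.21 within a pooled SD of 0.60 and 2 of 7 Ad-FAM3A aortas below the Ad-sham median. Ad-sham1 raised the Ad-sham mean of this share (0.0624%, against 0.0151% to 0.0320% in the other Ad-sham aortas), and the difference without it was not computed. The median of the mRNAs was 0.02 without Ad-sham1, 0.05 without Ad-sham6 and 0.04 without Ad-FAM3A2. The 13 mRNAs are cut from shared precursors, so their directions are not independent of each other.

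**Figure D2:**
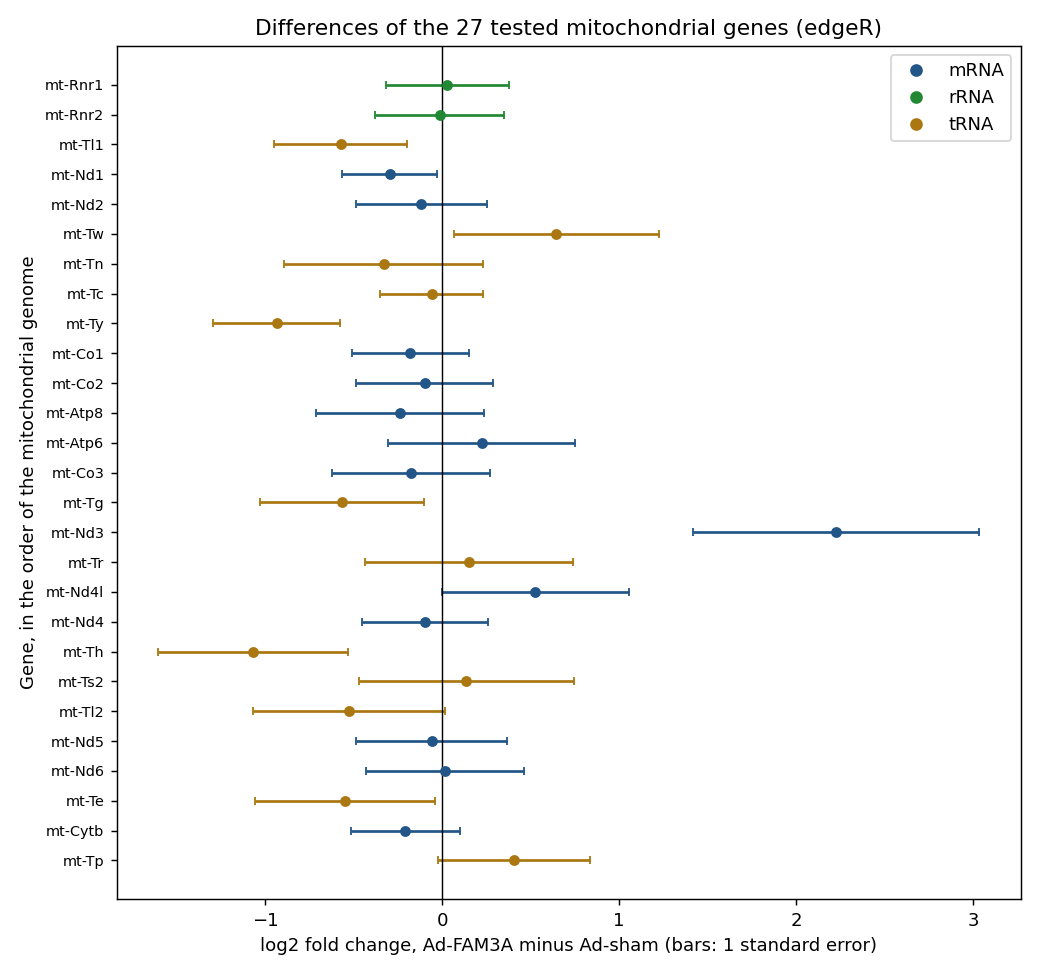
Log2 fold change (Ad-FAM3A minus Ad-sham) of the 27 tested mitochondrial genes with 1 standard error, in genome order and coloured by class. Values lie between -1.07 (mt-Th) and 2.22 (mt-Nd3), and most are within 1 standard error or a little more of 0.

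Complex IV (cytochrome c oxidase), which passes electrons to oxygen, has its 3 catalytic core subunits encoded here. mt-Co1 (ENSMUSG00000064351, MT:5328-6872, plus strand) was the most counted gene of the library in all 13 aortas, with 3.67% to 6.95% of all counts. Its level was 36680, 50008 and 69492 CPM (lowest, median and highest) in Ad-sham and 37099, 40811 and 62940 CPM in Ad-FAM3A. The ranges nearly coincided, and the log2 fold change was -0.18 ± 0.33 (SE, exact permutation p = 0.497). It was -0.06 without Ad-sham1 and -0.28 without Ad-sham5. mt-Co2 and mt-Co3, the other core subunits, were far less counted, with medians of 10381 and 12192 counts per aorta against 782142 for mt-Co1. Their log2 fold changes were -0.10 and -0.18, with standard errors of 0.39 and 0.44.

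Complex III has 1 mitochondrial subunit, cytochrome b. mt-Cytb (ENSMUSG00000064370, MT:14145-15288) had 18027, 23867 and 34778 CPM in Ad-sham and 15999, 21447 and 32936 CPM in Ad-FAM3A. The log2 fold change was -0.21 ± 0.31 (SE, exact permutation p = 0.445), and 5 of 7 Ad-FAM3A aortas lay below the Ad-sham median.

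Complex I (NADH dehydrogenase), the entry point of electrons from NADH, has 7 mitochondrial subunits. The 4 most counted were mt-Nd1, mt-Nd2, mt-Nd4 and mt-Nd5, with log2 fold changes of -0.29, -0.12, -0.10 and -0.06 and standard errors of 0.27 to 0.42. mt-Nd1 had the lowest fold change of the 13 mRNAs. It had 8791, 13178 and 17942 CPM in Ad-sham and 9133, 10706 and 15048 CPM in Ad-FAM3A, with 5 of 7 Ad-FAM3A aortas below the Ad-sham median (exact permutation p = 0.203). mt-Nd6, the single mRNA gene on the minus strand, averaged 2316 ± 1014 CPM over the 6 Ad-sham and 2399 ± 1197 CPM over the 7 Ad-FAM3A aortas (mean ± SD), with a log2 fold change of 0.02 ± 0.45 (SE). mt-Nd4l, a small membrane subunit, had a log2 fold change of 0.53 ± 0.53 (SE), which was 0.30 without Ad-FAM3A6, 0.32 without Ad-sham2 and 0.32 with the counts of its chromosome 1 copy added.

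mt-Nd3 (ENSMUSG00000064360, MT:9459-9806), a small subunit of the membrane arm, had the largest difference of the members. Its counts were 2748, 692, 587, 538, 332 and 773 in Ad-sham1 to Ad-sham6 and 568, 17617, 1436, 3842, 4943, 1359 and 996 in Ad-FAM3A1 to Ad-FAM3A7. Ad-FAM3A2 had more than 3 times the count of any other aorta, Ad-FAM3A4 and Ad-FAM3A5 followed, and the other Ad-FAM3A aortas lay within the Ad-sham range. The log2 fold change was 2.22 ± 0.81 (SE, unadjusted p = 0.0155 and adjusted p = 0.810 by edgeR, exact permutation p = 0.0490), and 6 of the 7 exceeded the median of Ad-sham. Without Ad-FAM3A2 it was 1.30 ± 0.65 (SE, unadjusted p = 0.0674 by edgeR), and without Ad-sham1 it was 2.97 ± 0.83 (SE, unadjusted p = 0.0034 and adjusted p = 0.744 by edgeR). Of the 199 windows of 150 bases in mt-Nd3, 97.0% occur unchanged in its chromosome 1 copy Gm28438, so reads can be split between them. With the counts of the copies added to their mitochondrial genes, the log2 fold change of mt-Nd3 was 1.90 ± 0.72 (SE).

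ATP synthase (complex V) has 2 mitochondrial subunits. mt-Atp6 had 77.0, 490 and 1331 CPM in Ad-sham and 184, 826 and 1117 CPM in Ad-FAM3A, a log2 fold change of 0.22 ± 0.53 (SE). It was -0.01 without Ad-sham2, 0.70 without Ad-sham1, 0.63 with the replicate number as a block and 0.38 with copy counts added. mt-Atp8 had 5 to 59 counts per aorta, the fewest of the mRNAs, and a log2 fold change of -0.24 ± 0.47 (SE). The last 43 of its 204 bases overlap mt-Atp6, and the study does not state how reads on overlapping genes were counted, so its level is uncertain. The rRNAs of the mitochondrial ribosome, mt-Rnr1 and mt-Rnr2, had log2 fold changes of 0.03 and -0.01 with standard errors of 0.35 and 0.37. The sign for mt-Rnr2 turned with library totals, with DESeq2's size factors and with normalization on nuclear genes alone (0.02, 0.0002 and 0.0019).

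Most of the counts on mitochondrial mRNAs lay on few genes. mt-Co1 made up 35.4% to 51.8% of the mRNA counts, mt-Cytb 18.3% to 21.1% and mt-Nd1 8.84% to 13.4%. The 6 most counted mRNAs together held 94.7% to 98.5%, and the other 7 held 1.46% to 5.31%. Per length (CPM per kb), the medians over the 13 aortas ran from 29790 for mt-Co1 and 19174 for mt-Cytb down to 179 for mt-Nd3 and 7.14 for mt-Atp8. mt-Co1 was first and mt-Cytb second in all 13 aortas, with a median ratio of 1.49 between them. Below them, mt-Nd1 exceeded mt-Nd2 in 11 of 13 aortas, mt-Nd2 exceeded mt-Nd4 in 13, mt-Nd4 exceeded mt-Nd5 in 13 and mt-Nd5 exceeded mt-Nd6 in 12. Further down, neighbours changed places: mt-Rnr1 exceeded mt-Rnr2 in 9 of 13 and mt-Co3 exceeded mt-Co2 in 4 of 13, so those pairs were not ordered beyond their spread. The highest aorta exceeded the lowest 1.89-fold for mt-Co1, 2.17-fold for mt-Cytb, 8.76-fold for mt-Nd5 and 63.4-fold for mt-Nd3.

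**Figure D3:**
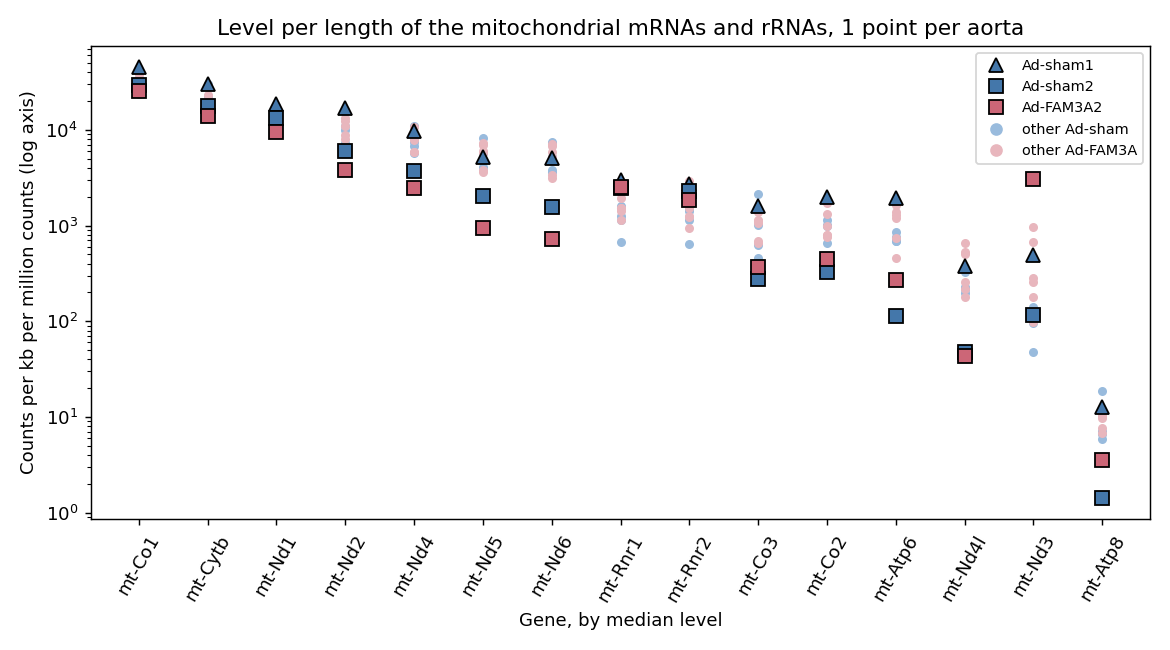
Level per length of the 13 mRNAs and 2 rRNAs on a log axis, 1 point per aorta, with Ad-sham1, Ad-sham2 and Ad-FAM3A2 marked by outlined symbols. Levels fall from a median of 29790 for mt-Co1 to 7.14 for mt-Atp8, and Ad-sham2 and Ad-FAM3A2 sit at the bottom for mt-Nd2, mt-Nd4, mt-Nd5 and mt-Nd6.

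The levels were set beside how much of each gene is shared with the nuclear copies. The 5 mRNAs with over 90% of their 150-base windows in another annotated gene (mt-Co2, mt-Atp6, mt-Co3, mt-Nd3 and mt-Nd4l) had medians per length of 179 to 1008. The 6 mRNAs with no window in another annotated gene spanned 7.14 (mt-Atp8) to 19174, with a median of 8061. For mt-Atp8 this does not exclude a copy, since only annotated genes were searched. Its last 43 bases also lie in Gm10925, and the rest lies between mt-Co2 and mt-Atp6. The copies of these 2 genes are neighbours on chromosome 1, and the bases between those copies were not searched. mt-Nd4, with 59.2% of its windows shared, had 7432, and mt-Co1, with 23.6%, had 29790. The part of read assignment in these levels was not tested, since the study does not state how reads that align to more than 1 gene were handled.

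The copies on chromosome 1 together held 0.551 to 3.85 counts per 100 mitochondrial counts. Gm28661, identical to mt-Co2 over 681 bases, took 36.8% to 49.2% of the counts of the pair. Gm29216, the copy of part of mt-Co1 with 1 difference in the aligned stretch, took 0.174% to 5.93% of its pair. It had 70599 counts in Ad-sham1 and 1375 to 15273 in the other 12 aortas. Gm28437, identical to mt-Co3, had 33089 counts in Ad-FAM3A2, where mt-Co3 had 4743, and 1820 to 8686 counts in the other 12. With copy counts added, the log2 fold change of mt-Co3 went from -0.18 to 0.29. Ad-sham1 thus stood apart in the mt-Co1 pair and Ad-FAM3A2 in the pairs of mt-Co3 and mt-Nd3.

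**Figure D4:**
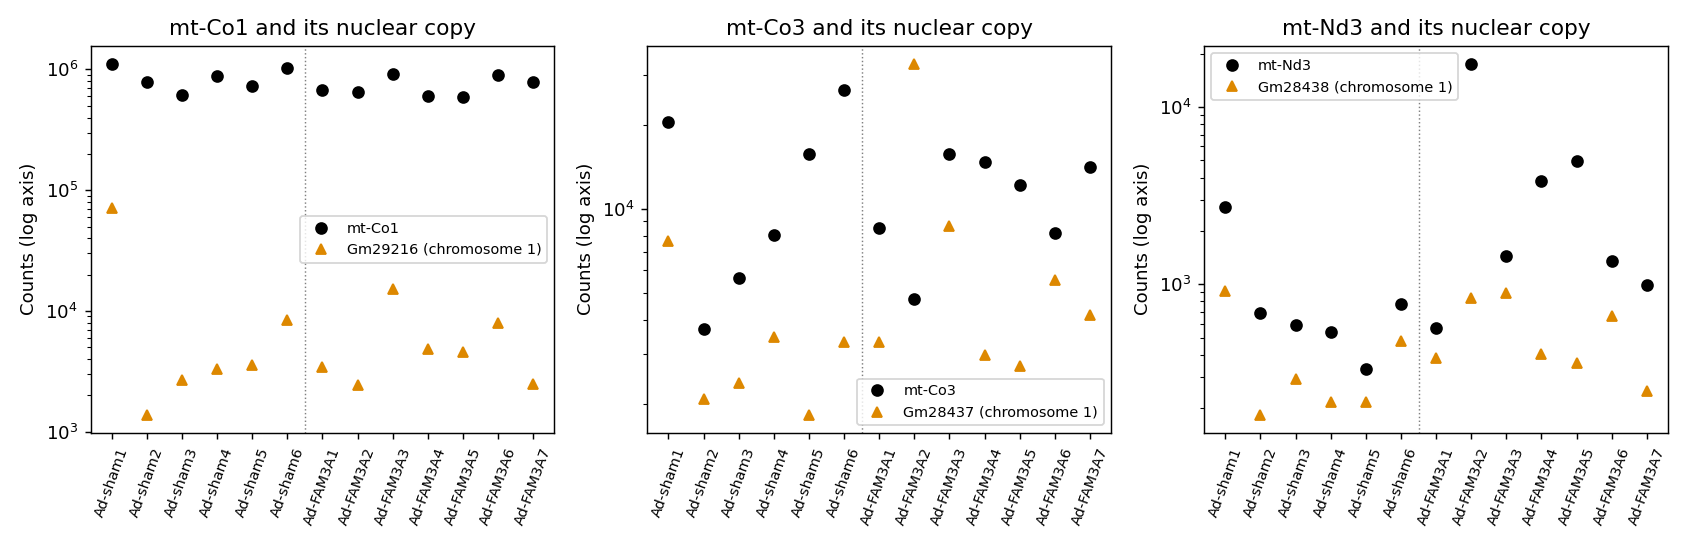
Counts of 3 mitochondrial genes (black circles) and of their copies on chromosome 1 (orange triangles) on log axes, 1 pair per aorta, with Ad-sham left of the dotted line. Gm29216 peaks in Ad-sham1 (70599 counts), and in Ad-FAM3A2 Gm28437 (33089 counts) exceeds mt-Co3 (4743 counts) while mt-Nd3 is at 17617 counts.

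Ad-sham2 and Ad-FAM3A2, 1 aorta of each group, differed from the other 11 in the make-up of their mitochondrial mRNA. mt-Nd5 per mt-Nd1 (both per length) was 0.154 and 0.0987 in these aortas, against 0.277 to 0.536 in the other 11. mt-Nd2 per mt-Nd1 was 0.456 and 0.403, against 0.769 to 1.16. In these 2 aortas mt-Co1 reached 48.2% and 51.8% of mitochondrial mRNA counts (35.4% to 41.6% elsewhere) and mt-Nd6 fell to 0.856% and 0.495% (1.56% to 2.66%). rRNA counts per 100 mitochondrial mRNA counts were 6.31 and 7.08, against 1.71 to 5.94 elsewhere. The same 2 libraries held the largest share of nuclear protein-coding counts on genes under 1000 bases (3.97% and 4.49%, against 1.69% to 2.81%) and the smallest on genes over 3000 bases (69.7% and 64.7%, against 73.1% to 78.2%). Without both, the median log2 fold change of the 13 mRNAs was -0.10, as with them, and that of mt-Nd3 was 1.20 ± 0.71 (SE). The part of RNA length or quality in these values was not tested.

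mt-Nd6 is the minus-strand partner of mt-Nd5, and per length it stood at 0.766 to 1.02 of the level of mt-Nd5 in the 13 aortas. It is not known whether the counting used strand, so counts on mt-Nd6 may include RNA of the plus strand. The ratio was 0.874 ± 0.0747 (SD, n = 6) in Ad-sham and 0.908 ± 0.0845 (SD, n = 7) in Ad-FAM3A. It varied less between aortas than either gene did, since mt-Nd5 spanned 8.76-fold and mt-Nd6 10.3-fold.

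The tRNA genes held 0.168 to 0.368 counts per 100 mitochondrial mRNA counts. Of the 22, 8 lie on the minus strand, and these took 83.4% to 97.1% of tRNA counts. The 5 with the highest medians, mt-Tp (2508 counts), mt-Tc (929), mt-Te (371), mt-Ty (219) and mt-Tn (185), were all on that strand. The others on it, mt-Ta, mt-Tq and mt-Ts1, had medians of only 8, 2 and 1 counts, so the share is not a trait of every gene there. mt-Tl1, which follows the 16S rRNA, led the plus strand with a median of 154. mt-Tf, at the start of the plus strand, had 0 counts in all 13 aortas, and mt-Td and mt-Tk had at most 1. A read counted on a tRNA gene can come from the mature tRNA or from an uncut precursor of either strand, since it is not known whether the counting used strand.

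**Figure D5:**
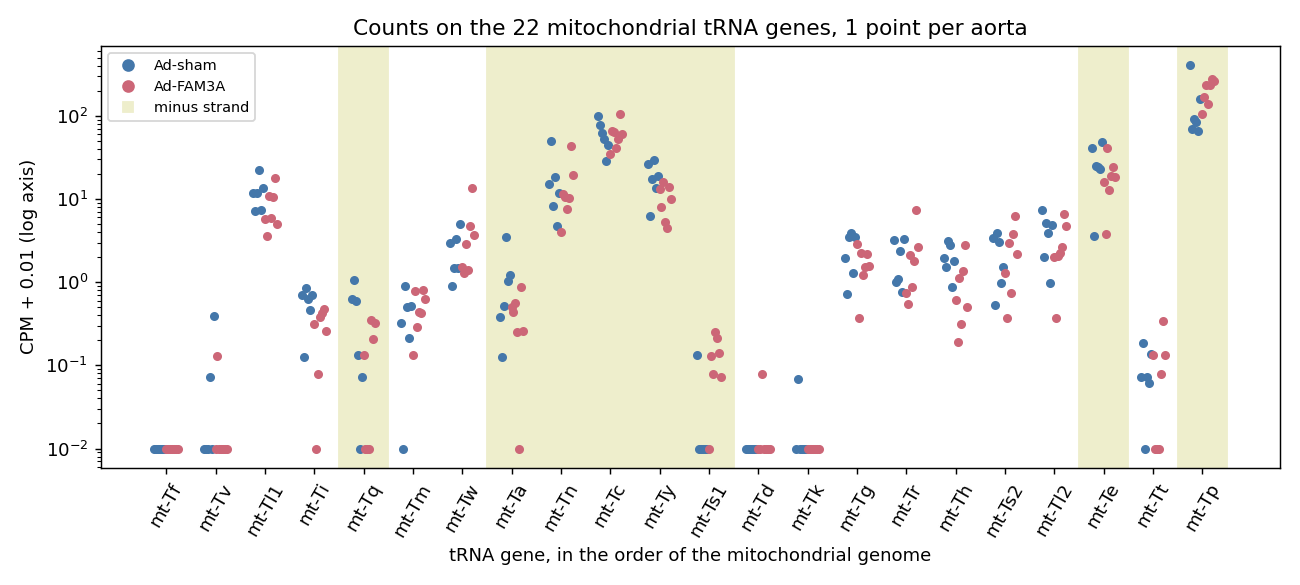
CPM of the 22 tRNA genes on a log axis in genome order, 1 point per aorta, with minus-strand genes shaded and genes at 0 counts drawn at the bottom edge. mt-Tp and mt-Tc, both on the minus strand, stand highest, and the 7 Ad-FAM3A points of mt-Ty reach 15.8 CPM against 29.8 CPM in Ad-sham.

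mt-Ty (tRNA for tyrosine, ENSMUSG00000064350, MT:5260-5326, minus strand) had the lower fold change with an unadjusted p under 0.05. Its counts were 423, 108, 269, 485, 270 and 298 in Ad-sham1 to Ad-sham6 and 219, 134, 229, 87, 66, 209 and 159 in Ad-FAM3A1 to Ad-FAM3A7. In CPM all 7 Ad-FAM3A aortas lay below the Ad-sham median, and Ad-sham2 and Ad-sham5 lay within the Ad-FAM3A range. The log2 fold change was -0.93 ± 0.36 (SE, unadjusted p = 0.0210 and adjusted p = 0.810 by edgeR, exact permutation p = 0.0653). It was -0.78 without Ad-sham1 and -0.74 without Ad-sham4 (unadjusted p = 0.0573 and 0.0634 by edgeR), and -1.07 without Ad-sham2 and Ad-FAM3A2. Its neighbours on the same strand, mt-Tc and mt-Tn, had log2 fold changes of -0.06 and -0.33 with standard errors of 0.29 and 0.56.

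mt-Tp (ENSMUSG00000064372) was above the Ad-sham median in all 7 Ad-FAM3A aortas. Its counts were 6569, 1193, 1424, 1385, 1308 and 2508 in Ad-sham1 to Ad-sham6 and 1721, 2763, 3375, 2235, 3391, 4211 and 4217 in Ad-FAM3A1 to Ad-FAM3A7. Ad-sham1 was the highest aorta of all, and the other Ad-sham aortas except Ad-sham6 lay below every Ad-FAM3A aorta. The log2 fold change was 0.41 ± 0.43 (SE, exact permutation p = 0.118). Without Ad-sham1 it was 1.08 ± 0.29 (SE, unadjusted p = 0.0027 and adjusted p = 0.744 by edgeR). mt-Tp made up 31.4% to 65.4% of tRNA counts in Ad-sham and 53.1% to 67.1% in Ad-FAM3A. The overlap of these shares rests on Ad-sham1 (65.4%), as the other Ad-sham aortas had 31.4% to 49.6%. mt-Th (histidine), at 3 to 48 counts, had a log2 fold change of -1.07 ± 0.53 (SE, exact permutation p = 0.0425, unadjusted p = 0.0654 by edgeR).

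The nuclear genes that make the partner subunits of the same complexes were set beside the mitochondrial mRNAs. The 78 nuclear respiratory chain and ATP synthase genes took 0.889% to 2.98% of the library. Of the 77 tested, 0 were called (0% of all genes tested) and 0 had an unadjusted p under 0.05 (5.91% of all genes). The log2 fold change was below 0 for 74 of them (96.1%, against 49.6% of all genes), with a median of -0.30, beside -0.10 for the mitochondrial mRNAs. Counts of mitochondrial mRNA per count of nuclear chain mRNA were 7.56, 3.51, 3.56, 11.3, 8.90 and 14.2 in Ad-sham1 to Ad-sham6 and 6.57, 2.54, 18.4, 7.67, 10.8, 9.74 and 8.01 in Ad-FAM3A1 to Ad-FAM3A7. The ratio was lowest in Ad-FAM3A2, Ad-sham2 and Ad-sham3 and highest in Ad-FAM3A3, and the groups overlapped. The log2 difference of 0.15 was within the pooled SD of 0.86. It was -0.06 without Ad-sham2, -0.05 without Ad-sham3 or Ad-FAM3A3 and 0.42 without Ad-FAM3A2, and 0.37 with the median of log2 CPM per gene in place of sums. Brown fat markers were highest in Ad-sham3 (3723 CPM), Ad-sham2 (3033), Ad-FAM3A2 (2149) and Ad-sham1 (2134), and 4 of the 6 tested were lower in Ad-FAM3A at an unadjusted p under 0.05, beside 463 lower of all 15811 genes tested. The 8 adipocyte markers were highest in the same 4 aortas (8567 to 14304 CPM), and 8 of 8 had a log2 fold change below 0 (median -0.62, 2 with an unadjusted p under 0.05). The 8 smooth muscle markers all had one above 0 (median 0.33, 1 with an unadjusted p under 0.05). Of all genes tested, 49.6% lay below 0 and 5.91% had an unadjusted p under 0.05. Other lists were as one-sided, with 7 of 7 fibroblast, 8 of 8 sympathetic neuron and 5 of 5 tested kidney markers below 0. All 7 B-cell markers lay above 0 at an unadjusted p under 0.05, while macrophage markers were split 4 and 4. The part of these tissues and cell types in the nuclear chain values and in the ratio was not tested.

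Among the nuclear genes known to act on the mitochondrial genome, 38 of 39 were tested and 0 were called. These are 10 genes of transcription, 6 of replication, 17 of RNA processing and 6 regulators of mitochondrial biogenesis. Of the 38, 27 had a log2 fold change below 0 (71.1%, against 49.6% of all genes), with a median of -0.12. By edgeR, 1 of them had an unadjusted p under 0.05, which is 2.63% and below the background of 5.91%. This was Pprc1, a coactivator of the PGC-1 family, with 26.4 ± 4.84 CPM in the 6 Ad-sham and 36.4 ± 6.74 CPM in the 7 Ad-FAM3A aortas (mean ± SD). It exceeded the median of Ad-sham in 6 of the 7, with a log2 fold change of 0.44 ± 0.16 (SE, adjusted p = 0.810 by edgeR, exact permutation p = 0.0181). The exact permutation p was under 0.05 for 1 further gene, Mterf1a of the mitochondrial transcription termination factor family, at 2.55 ± 0.412 CPM in Ad-sham and 3.63 ± 1.01 CPM in Ad-FAM3A (mean ± SD, log2 fold change 0.48 ± 0.24 SE, exact permutation p = 0.0361, unadjusted p = 0.0679 by edgeR). It was named after its values were seen. Ppargc1a, the founding member of the PGC-1 family, had a log2 fold change of -0.39 ± 0.24 (SE). For Polrmt (the mitochondrial RNA polymerase), Tfam (which packages the genome and starts transcription) and Lrpprc (which stabilizes mitochondrial mRNAs) the log2 fold changes were -0.21, 0.0012 and -0.25, with standard errors of 0.15, 0.15 and 0.19.

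The level of mt-Co1 was set against 13 lists of tissue and cell type markers and against the nuclear chain genes over the 13 aortas, both scaled to nuclear counts. None of the 14 relations passed Benjamini-Hochberg adjustment. The nearest was smooth muscle, with Pearson's r of -0.62 (permutation p = 0.0228, adjusted p = 0.319) and Spearman's rho of -0.52 (permutation p = 0.0747, adjusted p = 0.515). It was -0.46 within Ad-sham and -0.76 within Ad-FAM3A, and -0.37 without the 2 aortas farthest from the median (Ad-FAM3A6 and Ad-sham1), so the pooled value rests in part on those aortas. For the nuclear respiratory chain genes r was -0.09 (permutation p = 0.761, adjusted p = 0.820) and Spearman's rho -0.03 (permutation p = 0.920, adjusted p = 0.922), and r was 0.24 without the 2 aortas farthest from the median.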

How the data were processed

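RNA from 13 mouse aortas was sequenced. The labels name the RNeasy and SMARTER mRNA-Seq kits, whereas the study's methods name TRIzol and a New England Biolabs kit. The authors aligned reads to GRCm38 with Hisat2, counted them per Ensembl gene with FeatureCounts and deposited the counts as whole numbers without normalization. The annotation release, strand setting and treatment of reads aligning to several genes are not given in the sources used here. A deposited file of group mean FPKM was not used, and 0 columns were left unmapped.

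Counts were normalized by TMM, filtered by filterByExpr and compared by edgeR 4.0.16 (R 4.3.3) quasi-likelihood tests, with Benjamini-Hochberg adjustment over 15811 genes and no covariate. The standard error is the fold change over the square root of F. Single genes were also compared on log2 CPM (0.5 counts added) by two-sided exact permutation over the 1716 splits, where the smallest p is 0.000583. Correlations used 100000 permutations. Sums and ratios over members are descriptions without a p. The fits were tested on simulated data with planted changes far larger than the differences of most mitochondrial genes, so that test does not bear on small differences. Coordinates of the 44 mitochondrial genes and copies matched GENCODE M21. DESeq2 1.42.0, limma 3.58.1, other normalizations, no filter, a replicate block and leaving out each aorta were alternatives. The named genes were all mitochondrial genes, Fam3a and, among the nuclear factors, Ppargc1a, Tfam, Polrmt, Lrpprc and those with an unadjusted p under 0.05. Mterf1a, Slirp and the chromosome 1 copies are named in addition, outside this rule. The members and gene lists were chosen with earlier results of these data known. Same-numbered aortas of the 2 groups were not paired by any label.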

Additional observations from a re-analysis of the deposited data

Results flagged for a closer look

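An aorta was singled out where its gap to the nearest of its group exceeded Dixon's 95% critical value. Of 78 groups of values examined (27 genes and 12 sums or ratios in each group), 13 were singled out, where chance gives about 3.9.

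In Ad-FAM3A2, log2 CPM stood apart for 5 genes. Here mt-Nd4 was 11.73 (12.98 to 13.84 in the other 6 Ad-FAM3A aortas), mt-Nd5 was 10.75 (12.69 to 13.71), mt-Nd6 was 8.55 (10.66 to 11.85), mt-Tl2 was -1.35 (1.03 to 2.74) and mt-Tg was -1.35 (0.33 to 1.53). The values of mt-Tl2 and mt-Tg in Ad-FAM3A2 rest on only 6 counts each. In the same aorta mt-Nd5 per mt-Nd1 was 0.0987 (0.356 to 0.536 in the other 6).

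In Ad-sham2, log2 CPM was 6.27 for mt-Atp6 (8.86 to 10.38 in the other 5 Ad-sham aortas), 3.83 for mt-Nd4l (5.89 to 6.80) and 1.87 for mt-Te (4.52 to 5.62), and mt-Nd2 per mt-Nd1 was 0.456 (0.769 to 0.905).

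In Ad-sham1, tRNA genes took 0.0624% of the library (0.0151% to 0.0320% in the other 5), at 0.368 tRNA counts per 100 mitochondrial mRNA counts (0.168 to 0.233), and the chromosome 1 copies held 3.85 counts per 100 mitochondrial counts (0.551 to 1.42).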

How the results depend on the processing

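The number of mitochondrial genes called was 0 under every alternative run, as was that of the nuclear genes of mitochondrial transcription, replication, RNA processing and biogenesis. DESeq2 called 10 genes in all and the other fits 0. The median log2 fold change of the mitochondrial mRNAs, the mitochondrial share and the ratio to nuclear chain mRNA moved by less than 1 pooled SD under every alternative run, although signs near 0 turned. Leaving out 1 aorta gave -0.21 to -0.019 for the share and -0.06 to 0.42 for the ratio, which was 0.37 with the median of log2 CPM per gene. The median ranged from -0.24 to 0.05 when 1 aorta was left out. Of 594 values for the 27 genes, 532 kept their direction, 62 (over 14 genes) turned it and 0 passed the adjusted threshold. Depth is lowest for mt-Atp8 and for the tRNAs under 50 counts. How much of each gene's spread is counting error was not tested.

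Leaving out 1 aorta gave log2 fold changes of 1.30 to 2.97 for mt-Nd3, 0.30 to 0.74 for mt-Nd4l, -0.28 to -0.06 for mt-Co1, -0.31 to -0.09 for mt-Cytb, -0.41 to -0.18 for mt-Nd1, 0.24 to 1.08 for mt-Tp, -0.15 to 0.29 for mt-Rnr1, -0.24 to 0.21 for mt-Rnr2, -0.24 to 0.059 for mt-Nd2, -0.82 to 0.30 for mt-Tn, -0.23 to 0.16 for mt-Tc, -0.29 to 0.23 for mt-Co2, -0.46 to 0.11 for mt-Atp8, -0.0064 to 0.70 for mt-Atp6, -0.37 to 0.18 for mt-Co3, -0.48 to 0.39 for mt-Tr, -0.23 to 0.062 for mt-Nd4, -0.26 to 0.35 for mt-Ts2, -0.22 to 0.14 for mt-Nd5 and -0.16 to 0.22 for mt-Nd6. With limma-voom, the sign turned for mt-Rnr2 (0.047), mt-Atp8 (0.0037), mt-Co3 (0.051), mt-Tr (-0.030) and mt-Nd6 (-0.10). mt-Rnr2 was 0.00022 with DESeq2's size factors, 0.019 with library totals and 0.0019 with nuclear genes alone. Chosen after seeing the data, adding the copy counts gave 0.29 for mt-Co3, and leaving out Ad-sham2 and Ad-FAM3A2 gave 0.086 for mt-Rnr2 and 0.35 for mt-Tn. Their causes were not tested.

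Same-numbered aortas correlated at -0.33 to 0.45 in their deviations from the group means, and 1 of 6 correlated best with its own number, so the numbers were not taken to pair the samples. With the replicate number as a block over 12 aortas, the median of the mRNAs was -0.14, 0 genes were called and 596 genes had an unadjusted p under 0.05, against 791 without the block. Under the block the sign turned for mt-Rnr2 (0.091), mt-Tc (0.023), mt-Co2 (0.060), mt-Co3 (0.027), mt-Tr (-0.13), mt-Ts2 (-0.063) and mt-Nd6 (-0.17).

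Without the 2 aortas farthest from the median, r between mt-Co1 and marker lists turned to -0.33 for cardiac muscle, 0.13 for brown fat, -0.31 for kidney and 0.24 for the nuclear chain. With the mean of log2 CPM it was 0.13 for brown fat.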

Other observations

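Across the libraries, 4 to 6 of the 10 most counted genes were mitochondrial. Of the nuclear RNA processing genes listed, Slirp was the 1 not tested, at 0 to 1.29 CPM, while its partner Lrpprc averaged 110 ± 32.6 CPM over the 6 Ad-sham and 94.9 ± 22.3 CPM over the 7 Ad-FAM3A aortas (mean ± SD).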
